A study of Mus musculus with 6 samples.

Results

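The Lgr5 stem cell signature comprised 33 genes known to be enriched in the Lgr5-expressing cells at the base of the intestinal crypt. The members were taken by gene symbol from tables of RNA sequencing reads per RefSeq entry, with the entry of highest mean level where a symbol had more than 1. All 33 were found among the 16819 symbols measured in cells with and without the Ring1a and Ring1b genes. In cells that also carried an altered beta-catenin gene, 32 were found among 15915 symbols, Slc14a1 being the one not found. RNA came from small-intestinal crypt cells of C57BL/6 mice, sorted by their Lgr5-GFP signal on day 6 after 3 doses of tamoxifen. The allele Lgr5Gfp-CreERT2, present in all groups, places GFP and a tamoxifen-dependent Cre recombinase under the control of Lgr5. Recombination thus starts in cells that use the Lgr5 gene, and Lgr5 itself marked the cells at sorting. WT (2 libraries) carried this allele alone. RingKO (2 libraries) had Ring1a-/- and Ring1bf/f in addition, of which only Ring1bf/f, as written, depends on the recombinase. Bcat (1 library) was Lgr5Gfp-CreERT2-Ctnnb1-ex3, and Bcat_RingKO (1 library) had that allele with Ring1a-/- and Ring1bf/f. The labels do not say whether the libraries of a group came from separate animals, so p-values measure the spread between these libraries, and that spread may be technical.

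Lgr5 is a receptor for R-spondins, secreted proteins that strengthen Wnt signalling, and it marks the dividing columnar stem cells that lie between Paneth cells. Wnt signals reach the genes of these cells through beta-catenin, the product of Ctnnb1, and the transcription factor Ascl2 acts with that pathway to keep the stem cell state, while Olfm4 is one of the most abundant transcripts of the same cells. Ring1a (gene symbol Ring1) and Ring1b (symbol Rnf2) are the E3 ligases of Polycomb repressive complex 1, which ubiquitinates a histone at silenced genes. Removal of exon 3 of Ctnnb1 is known to take away the part of beta-catenin that marks it for breakdown.

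Reads over all RefSeq entries numbered 6753789 and 6294932 for WT and 2911422 and 2651201 for RingKO. The single Bcat library held 922153 and the single Bcat_RingKO library 4470853. The 2 libraries of a group, called A and B, had been averaged by the authors, and their reads were recovered from the means, so the letters carry no order and match no replicate number. The epithelial markers Epcam, Cdh1, Krt8, Krt18, Vil1 and Cdx2 were present in every library. Leukocyte markers summed to between 180 and 223 normalized reads per library in WT and RingKO, most of them from Cd14, with the pan-leukocyte gene Ptprc at 0 in both RingKO libraries and in WT library B. Stromal and endothelial markers summed to between 15.5 and 35.5 in WT and RingKO. In the separately scaled pair, where 4 of them were measured, the sums were 47.0 in Bcat and 5.37 in Bcat_RingKO. Ring1 fell from 484 and 363 reads in WT to 9 and 11 in RingKO. Its count was 24 in Bcat and 43 in Bcat_RingKO, which is 0.358 of the Bcat level after normalization. Counts over whole transcripts do not check the Rnf2 or Ctnnb1 alleles.

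More signature genes fell than rose in RingKO cells. Below, a gene "fell" or "rose" where its adjusted p in the authors' deposited table was under 0.05, and log2 fold changes ± SE are estimates of edgeR's quasi-likelihood model, fitted to recovered reads with 2 libraries for each genotype. Of the 33 members 11 fell (33.3%), against 1.76% of all 18376 entries, and 3 rose (9.09%), against 3.14%. The other 19 did not pass. The edgeR test with Benjamini-Hochberg adjustment called 11 members lower, against 2.95% of the entries it tested, and 4 higher, against 9.91%. Those that fell included the transcription factor gene Ascl2, the water channel gene Aqp4 and the matrix protein gene Prelp, while Nrn1, Nav1 and Phlda1 rose. The median log2 fold change was -0.46 over the 30 members with enough reads for edgeR and -0.01 over all 11170 entries so tested. On the authors' own scaling the same medians were -0.60 and -0.17 in the authors' deposited table. The trimmed-mean (TMM) scaling of edgeR thus places all changes about 0.17 higher on the log2 scale than the authors' size factors do. In bulk RNA of sorted cells, a smaller share of cells that express these genes and less RNA of these genes per cell cannot be told apart. The calls were made with 2 libraries on each side and 10 of the 14 were lost under at least 1 other setting or with 1 library left out. Aqp4, Scn2b, Prelp and Nrn1 passed in each of the 9 settings run for them.

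**Figure D1:**
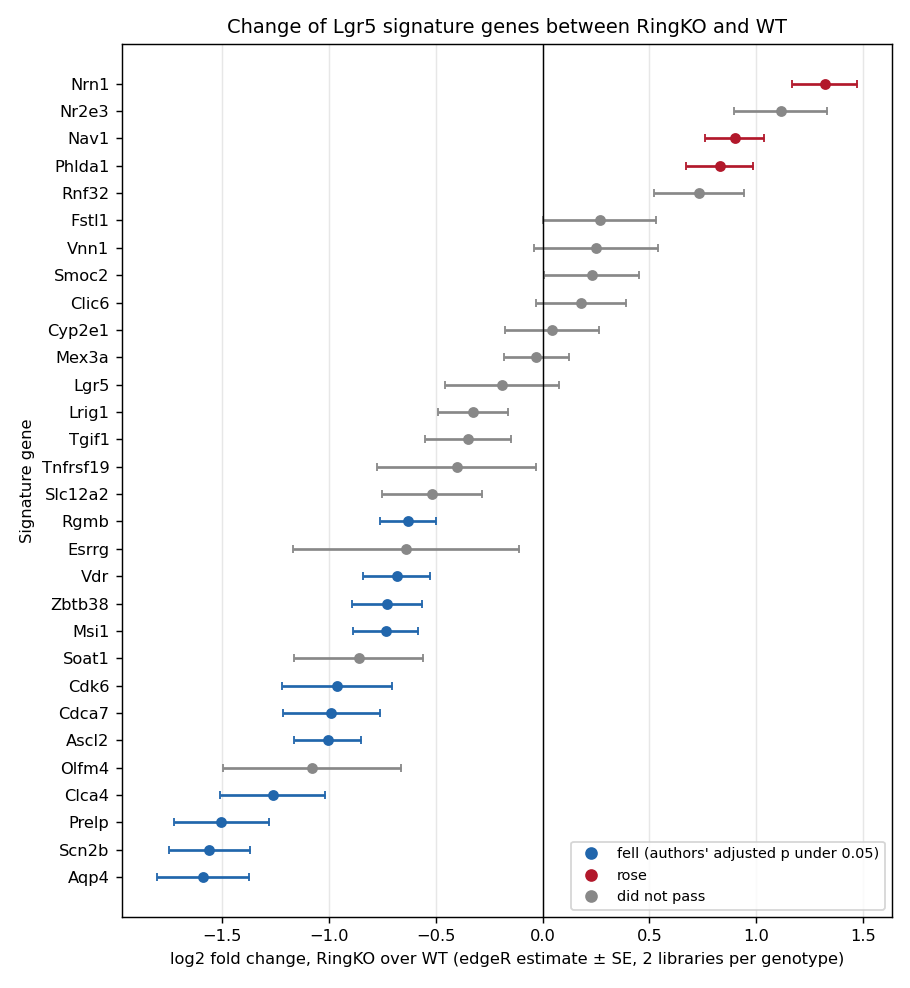
Log2 fold change of RingKO over WT (x axis, edgeR estimate, bars ± SE, 2 libraries per genotype) for the 30 signature genes with enough reads, sorted by size. Blue genes fell, red genes rose and grey genes missed the threshold in the authors' deposited table. The estimates run from -1.59 for Aqp4 to 1.32 for Nrn1, and Olfm4 has a wider error bar (0.42) than any gene that passed.

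The DNA just upstream of the transcription start is shown for 5 members to let the fallen, the variable and the risen genes be seen side by side: Ascl2, Scn2b and Prelp fell, Olfm4 differed most between the RingKO libraries among members averaging 50 or more normalized reads, and Nav1 rose. The sequences are the 250 bases before the RefSeq start site on build GRCm38.p6, read 5′ to 3′ on the gene's strand, with each CpG dinucleotide in capitals. They lie at chr7:142969265-142969514 (Ascl2, minus strand), chr9:45117626-45117875 (Scn2b, plus strand), chr1:133921402-133921651 (Prelp, minus strand), chr14:80000052-80000301 (Olfm4, plus strand) and chr1:135585356-135585605 (Nav1, minus strand).
Ascl2: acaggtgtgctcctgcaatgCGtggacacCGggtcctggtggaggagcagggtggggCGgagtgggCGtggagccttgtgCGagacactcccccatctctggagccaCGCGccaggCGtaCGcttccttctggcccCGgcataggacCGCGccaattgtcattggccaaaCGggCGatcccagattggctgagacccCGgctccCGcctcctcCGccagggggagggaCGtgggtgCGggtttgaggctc
Scn2b: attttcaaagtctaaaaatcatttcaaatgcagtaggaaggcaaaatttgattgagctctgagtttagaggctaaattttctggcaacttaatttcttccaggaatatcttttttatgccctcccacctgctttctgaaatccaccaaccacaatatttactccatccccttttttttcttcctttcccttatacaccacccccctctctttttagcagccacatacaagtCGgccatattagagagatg
Prelp: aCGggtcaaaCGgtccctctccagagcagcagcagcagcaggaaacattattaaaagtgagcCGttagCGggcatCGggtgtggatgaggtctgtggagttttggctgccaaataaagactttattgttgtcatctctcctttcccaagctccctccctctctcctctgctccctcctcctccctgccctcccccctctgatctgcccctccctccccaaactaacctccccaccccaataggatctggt
Olfm4: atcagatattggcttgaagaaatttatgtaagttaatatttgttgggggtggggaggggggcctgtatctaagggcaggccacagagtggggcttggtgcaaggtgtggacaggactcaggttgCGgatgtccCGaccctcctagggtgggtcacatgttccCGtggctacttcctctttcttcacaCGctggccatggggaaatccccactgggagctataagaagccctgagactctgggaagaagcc
Nav1: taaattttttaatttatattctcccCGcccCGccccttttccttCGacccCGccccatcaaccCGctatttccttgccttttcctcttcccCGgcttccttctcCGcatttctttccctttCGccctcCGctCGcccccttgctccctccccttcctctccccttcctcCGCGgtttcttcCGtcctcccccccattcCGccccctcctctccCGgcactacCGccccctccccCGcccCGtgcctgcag

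CpG-rich starts are where Polycomb complexes are commonly found in mammalian cells. The Ascl2 window held 19 CpG and the Nav1 window 18, while Prelp had 5, Olfm4 had 4 and Scn2b had 1. Among the genes printed, those that fell thus included both a CpG-rich and CpG-poor starts. Promoter windows were at hand for 23 of the 33 members, with 37 start sites. With the start of most CpG taken for each gene, the 9 of these 23 that fell had a median of 19 CpG. The 13 that did not pass had 13, and 8683 genes tested by edgeR had 17. The word CTTTGA, the core bound by TCF/LEF factors, occurred on either strand in 7 of the 23 members at any start site, Scn2b among them, and in 13.8% of all 32851 promoter windows. The E-box CAGCTG, which reads the same on both strands, occurred in 4 members and in 13.0% of all windows. Several start sites per gene give a member more chances of a match than a single window has, and a match is a description of the letters only.

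Members are taken by role below, a grouping made after values were seen, and no role was tested against another. Among receptors and co-receptors, 1 of 4 members fell, against 33.3% of all members and 1.76% of all entries. The receptor that names the signature did not pass. Lgr5 stood at 602 and 650 normalized reads in the WT libraries and at 655 and 319 in RingKO. RingKO library A was thus just above the upper WT value and library B well below both WT libraries, and the groups overlapped. The log2 fold change was -0.19 ± 0.27, and it was 0.21 without RingKO library B and -0.75 without library A (adjusted p = 9.86e-04 by edgeR with Benjamini-Hochberg adjustment). In a fit with 1 library left out, the lone library is assumed to vary like the pair of the other genotype, and the WT pair lies closer together than the RingKO pair. Rgmb, a bone morphogenetic protein co-receptor, fell from 1063 and 1037 in WT to 622 and 574 in RingKO. The RingKO libraries lay close together and below both WT libraries, a log2 fold change of -0.63 ± 0.13. Being below WT in both RingKO libraries was shared by 52.0% of entries averaging 50 or more normalized reads. Without WT library A or B the edgeR adjusted p of Rgmb was 0.26 and 0.21. Lrig1, a membrane protein that restrains ErbB receptors, was at 2488 and 2897 in WT against 2140 and 1653 in RingKO (-0.33 ± 0.16). It missed the threshold, although it passed with RingKO library A left out (edgeR adjusted p = 0.00813). Tnfrsf19, also known as Troy, was low, at 22.4 and 20.4 normalized reads in WT and 15.6 and 12.9 in RingKO (-0.40 ± 0.37).

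Of the 7 transcription factor genes 3 fell and none rose, against 33.3% and 9.09% of all members and 1.76% and 3.14% of all entries. Ascl2 went from 670 and 564 normalized reads in WT to 293 and 250 in RingKO, so that both RingKO libraries lay below both WT libraries. Its log2 fold change was -1.01 ± 0.16, and the authors' deposited table gives its adjusted p as 1.79e-05. It did not pass with WT library A left out (edgeR adjusted p = 0.073). Vdr, the nuclear receptor for vitamin D, went from 4351 and 4846 reads to 2794 and 2260 (-0.68 ± 0.16). Zbtb38, a zinc finger protein that binds methylated DNA, went from 318 and 331 to 198 and 148 (-0.73 ± 0.17). Vdr and Zbtb38 also had both RingKO libraries below both WT libraries, as did 52.0% of entries averaging 50 or more normalized reads. Neither passed without WT library A (edgeR adjusted p = 0.182 and 0.154) or without WT library B (0.323 and 0.187). Nr2e3, an orphan nuclear receptor gene known from the retina, moved the other way, from 278 and 268 reads in WT to 659 and 389 in RingKO. Its log2 fold change of 1.12 ± 0.22 passed with edgeR (adjusted p = 0.0127) but not by the adjusted p of 0.499 in the authors' deposited table, nor with edgeR without WT library A or B (0.0737 and 0.0893). Tgif1, a repressor in the TGF-beta pathway, had a log2 fold change of -0.35 ± 0.20. Esrrg, an orphan nuclear receptor gene, had at most 17.3 normalized reads in a library, and Dach1 at most 12.7.

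Both cell cycle members fell and so did 1 of the 2 RNA-binding members, where 33.3% of all members and 1.76% of all entries fell. Cdca7, a cell division gene and known target of Myc and E2F, went from 2350 and 2551 normalized reads in WT to 1390 and 798 in RingKO (-0.99 ± 0.23). Cdk6, a kinase of the G1 phase, went from 157 and 170 to 54.0 and 93.3 (-0.96 ± 0.26), and was 1 of the 2 members averaging 50 or more normalized reads that were higher in RingKO library B than in A. Both genes lay below WT in both RingKO libraries, as did 52.0% of entries averaging 50 or more normalized reads. Without WT library A or B the edgeR adjusted p was 0.0982 and 0.14 for Cdca7 and 0.159 and 0.226 for Cdk6, and Cdk6 also missed the threshold with DESeq2 (0.076) and with edgeR under DESeq2-type size factors (0.0508). Of the 10 markers of cycling cells 3 fell as well, namely Foxm1, Ccna2 and Mki67, against 1.76% of all entries. With edgeR 1 of them, Foxm1, was called lower, against 2.95% of the entries tested. The markers of cycling cells summed to 13883 and 14054 normalized reads in WT and to 10850 and 7829 in RingKO, and their part in the result for these members was not tested. Msi1, the RNA-binding protein Musashi-1 of stem and progenitor cells, fell from 531 and 565 reads to 330 and 251 (-0.74 ± 0.15). It did not pass without WT library A or B (edgeR adjusted p = 0.126 and 0.17). Mex3a, another RNA-binding protein gene of slowly dividing crypt cells, was at 190 and 209 in WT against 185 and 159 in RingKO (-0.03 ± 0.15), and its sign turned when WT library B (0.017) or RingKO library B (0.040) was left out.

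The secreted and surface-anchored members went in different directions. Prelp, a leucine-rich matrix proteoglycan, fell from 1152 and 1163 normalized reads to 460 and 263, a log2 fold change of -1.50 ± 0.22 with adjusted p = 1.38e-12 in the authors' deposited table. Nrn1, a small protein held on the cell surface by a lipid anchor and known from neurons, rose from 123 and 125 to 300 and 248 (1.32 ± 0.15). The genotypes did not overlap for either gene. Among entries averaging 50 or more normalized reads, 52.0% had both RingKO libraries below both WT libraries and 14.4% had both above. Olfm4, a secreted glycoprotein, stood at 19237 and 23518 normalized reads in the WT libraries against 13530 and 4502 in the RingKO libraries. Both RingKO libraries lay below WT, but library A was closer to WT than to library B. Its log2 fold change of -1.08 ± 0.42 missed the threshold, with an adjusted p of 0.197 in the authors' deposited table and of 0.145 with edgeR. It was -0.51 without RingKO library B and -2.03 without library A. Both estimates rest on the split of the WT mean that was used. The authors' WT mean of Olfm4 also allows a split into 61418 and 4965 reads, in place of the 30097 and 33375 used. With the uneven split a WT library would lie below both RingKO libraries, and the edgeR adjusted p would be 0.492. Smoc2, a matricellular protein that binds calcium, had 2608 and 2698 normalized reads in WT and 3483 and 2032 in RingKO. The RingKO libraries stood on both sides of WT, and the log2 fold change was 0.23 ± 0.22. It was 0.54 without RingKO library B (edgeR adjusted p = 0.00128) and -0.16 without library A. Fstl1, a secreted follistatin-like protein, behaved alike, with 177 and 172 reads in WT against 249 and 123 in RingKO (0.27 ± 0.27), and its estimate without RingKO library A was -0.28. It passed without library B (edgeR adjusted p = 0.00873).

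**Figure D2:**
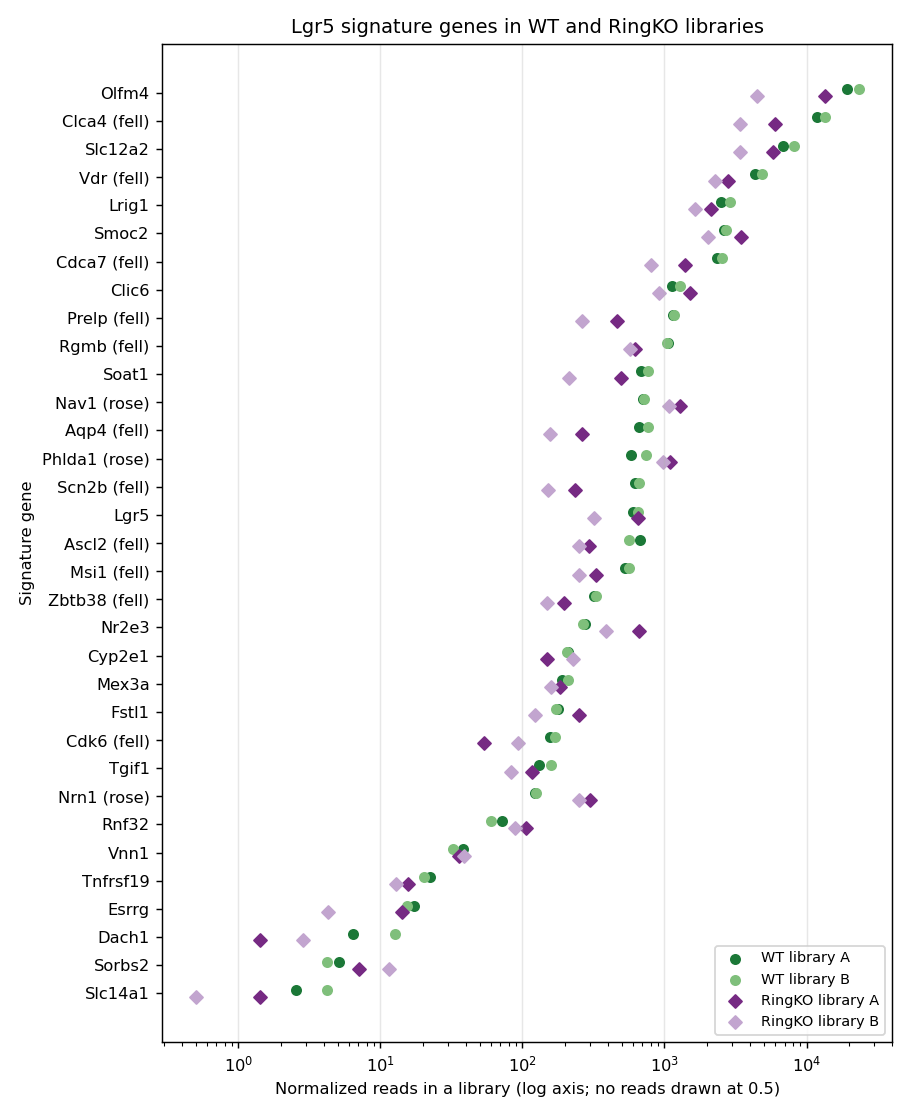
Normalized reads (x axis, log scale) of each signature gene in the 2 WT libraries (circles) and the 2 RingKO libraries (diamonds), 1 point per library, with libraries without reads drawn at 0.5. The WT points of most genes nearly coincide, while the RingKO points of Olfm4 (13530 and 4502) and Lgr5 (655 and 319) lie apart.

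Of the 6 channel and transporter genes 3 fell, and none rose, where 33.3% of all members and 1.76% of all entries fell. Aqp4, a water channel, went from 662 and 767 normalized reads to 263 and 157 (-1.59 ± 0.21, adjusted p = 1.28e-09 in the authors' deposited table). Scn2b, an auxiliary subunit of sodium channels, went from 623 and 659 to 233 and 151 (-1.56 ± 0.19). Clca4, a member of the calcium-activated chloride channel regulator family, went from 11930 and 13576 to 5995 and 3426 (-1.26 ± 0.25). Aqp4 and Scn2b did not overlap between genotypes, nor did Clca4 with the more even split of its WT mean. The other split would put a WT library of Clca4, at 2394 normalized reads, below both RingKO libraries. Over all entries averaging 50 or more normalized reads, 52.0% had both RingKO libraries below both WT libraries. Aqp4, Scn2b, Clca4 and Prelp had the largest falls of the signature. Aqp4 and Scn2b passed with any library left out (edgeR adjusted p at most 0.0116 and 0.00787). Clca4 did not pass without WT library B (0.0681), and not with the uneven split of its WT mean into 36160 and 3397 reads (0.367). Its RefSeq entry carries the symbol Clca3b in the promoter table, and reads could be shared with near-identical genes of the same family. Slc12a2, the sodium-potassium-chloride cotransporter, had 6829 and 8100 reads in WT against 5820 and 3422 in RingKO (-0.52 ± 0.23). It did not pass, except without RingKO library A (edgeR adjusted p = 6.66e-05). Clic6, an intracellular chloride channel protein, had 1136 and 1289 reads in WT against 1515 and 915 in RingKO (0.18 ± 0.21). It passed without RingKO library B (edgeR adjusted p = 0.00644) and its estimate without library A was -0.18. The urea transporter gene Slc14a1 had at most 4.23 normalized reads in any library.

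None of the 3 metabolic enzymes passed, and 2 of the 4 cytoskeletal and other members rose, against 9.09% of all members and 3.14% of all entries. Soat1, which esterifies cholesterol, had 678 and 765 normalized reads in WT and 493 and 213 in RingKO (-0.86 ± 0.30). The groups did not overlap, and it passed with either RingKO library left out (edgeR adjusted p = 3.83e-06 without A and 0.0419 without B). Cyp2e1, a cytochrome P450 enzyme, had 209 and 205 reads against 149 and 225 (0.04 ± 0.22), and Vnn1, a pantetheinase, had at most 38.8 in a library. The sign of Cyp2e1 turned without RingKO library B (-0.33). Nav1, a microtubule-binding protein also called neuron navigator, rose from 709 and 722 to 1277 and 1077 (0.90 ± 0.14). Phlda1, a protein with a pleckstrin homology-like domain, rose from 578 and 744 to 1097 and 971 (0.83 ± 0.16). Both RingKO libraries were above both WT libraries for Nav1 and Phlda1. Among entries averaging 50 or more normalized reads, 14.4% were above in this way and 52.0% were below, as Soat1 was. Without WT library A or B the edgeR adjusted p was 0.11 and 0.109 for Nav1 and 0.256 and 0.0665 for Phlda1. Rnf32, a RING finger protein gene, had 72.2 and 59.9 reads in WT against 105 and 89.0 in RingKO (0.73 ± 0.21). It passed without RingKO library B (edgeR adjusted p = 0.0213). Sorbs2, an adaptor of the actin cytoskeleton, had at most 11.5.

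The libraries of a genotype did not resemble each other equally. In WT the log2 ratio of library B over A had a median of 0.04 and an SD of 0.24 over the 7901 entries averaging 50 or more normalized reads, and of 0.11 and 0.15 over the 27 members above that level. In RingKO the same values were -0.12 and 0.45 over all entries and -0.48 and 0.49 over the members. RingKO library B had less than library A for 25 of these 27 members, against 63.8% of all entries, the exceptions being Cdk6 and Cyp2e1. A gap of over 2-fold between the RingKO libraries was seen for 4 members, and for 2.49% of entries. These 4 were Olfm4 (3.01-fold), Soat1 (2.32-fold), Lgr5 (2.06-fold) and Fstl1 (2.01-fold), and in WT no member of the 27 had such a gap. For Olfm4 and Clca4 the closeness of the WT libraries follows from the choice of the more even split and is no result. The other split would put them at 39256 and 3499 normalized reads for Olfm4 and at 23112 and 2394 for Clca4. Only 0.608% of entries lay further apart than Olfm4 and 2.15% further apart than Lgr5. Among the members that fell, the RingKO libraries were closest for Rgmb (1.08-fold apart), Ascl2 (1.17-fold) and Vdr (1.24-fold). Among the 3 that rose the gap was at most 1.21-fold.

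**Figure D3:**
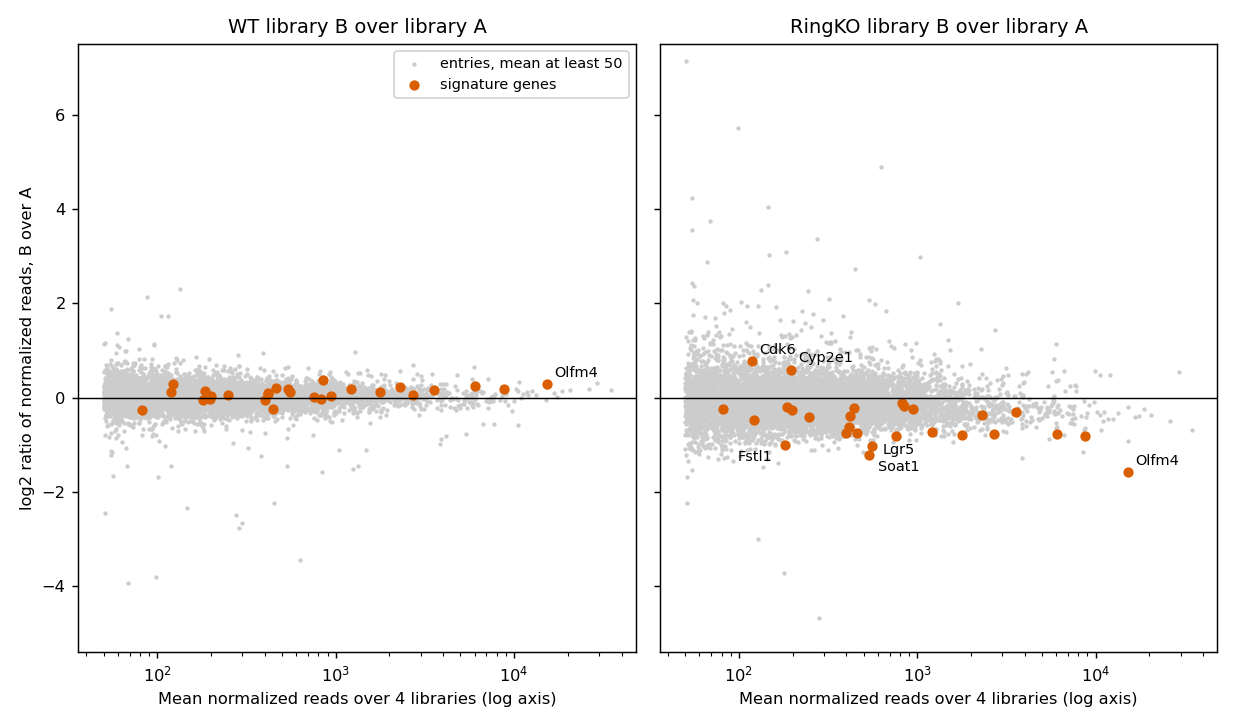
Log2 ratio of library B over library A (y axis) against the mean normalized reads over 4 libraries (x axis, log scale) in WT (left) and RingKO (right), with entries of mean at least 50 in grey and signature genes in orange. In RingKO 25 of 27 signature genes lie below 0 and Olfm4 lies lowest among them, while in WT the signature genes lie near 0, in the case of Olfm4 and Clca4 because the more even split of the WT mean was taken.

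Markers of other cell types were summed and counted in the same libraries. Paneth cell markers summed to 18500 and 12606 normalized reads in WT and to 41772 and 51441 in RingKO libraries A and B. Of these markers 8 of 9 rose, with Defa24, Mptx2 and Itln1 of smallest adjusted p. Over all entries 3.14% rose and 1.76% fell, which is the background for each list here. Goblet cell markers summed to 48634 and 58603 in WT and to 45225 and 67883 in RingKO, and 1 of 8 (Spink4) rose. With edgeR 1 goblet marker was called higher and 1 lower, against 9.91% and 2.95% of the entries it tested. The lower one was Clca3, with 2096 and 2962 normalized reads in WT against 803 and 1282 in RingKO (edgeR adjusted p = 0.0317). The sum of enterocyte markers was 3853 and 3432 in WT and 3243 and 5161 in RingKO, with 3 of 9 fallen, Fabp2, Mep1a and Sis, and 1 risen. Enteroendocrine markers fell for 7 of 10, led by Gip, Gcg and Sst (6674 and 7946 in WT, 2774 and 2931 in RingKO). Tuft cell markers fell for 4 of 8, with Trpm5, Avil and Alox5 first (792 and 795 in WT, 209 and 246 in RingKO). RingKO library B, with the lower signature reads, thus held more Paneth, goblet and enterocyte reads and fewer reads of cycling genes than library A. The part of these cell types in the signature result was not tested. The signature as a whole took 1.39% and 1.55% of reads in WT and 1.08% and 0.653% in RingKO. Without Olfm4 its normalized reads summed to 40708 and 45378 in WT and to 30950 and 20361 in RingKO. The WT shares and sums of the signature use the more even split of the Olfm4 and Clca4 means.

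Whether the libraries of the 2 genotypes overlapped was also counted, which needs no model but rests on the recovered reads. Olfm4 and Clca4 count as below WT here only with the more even split of their WT means. With the other split both would overlap. Both RingKO libraries were below both WT libraries for 17 of the 27 members with a mean of at least 50, against 52.0% of all such entries on the authors' scaling. Both were above for 5 members, against 14.4%. With TMM scaling the counts were 16 members below, against 35.4% of entries, and 5 above, against 22.2%. Mex3a, at 190 and 209 against 185 and 159, was the member of this level that overlapped under TMM alone.

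Genes of the Wnt pathway outside the signature were counted in the same way. Of 26 receptor, feedback and crypt base genes 23 were in the table, and 1 rose and 1 fell, while edgeR called 4 higher and 1 lower. Over all entries 3.14% rose and 1.76% fell, and edgeR called 9.91% of the entries it tested higher and 2.95% lower. Notum, a secreted enzyme that inactivates Wnt proteins, rose from 3.83 and 6.34 normalized reads in WT to 169 and 141 in RingKO (log2 fold change 5.09 ± 0.29). Sp5, a transcription factor gene induced by Wnt, fell from 349 and 363 normalized reads to 232 and 172 (-0.64 ± 0.16). It did not pass without WT library A or B (edgeR adjusted p = 0.225 and 0.278). Called higher by edgeR with Benjamini-Hochberg adjustment, but not by the authors, were the feedback inhibitor gene Nkd1 (19.2 and 19.0 normalized reads in WT against 88.1 and 47.4 in RingKO, 3.99-fold, adjusted p = 0.0072), the cyclin gene Ccnd1 (0.76 ± 0.14, 0.00897) and Igfbp4 (0.98 ± 0.23, 0.0264), which encodes a binding protein of insulin-like growth factors. Ccnd1 and Igfbp4 did not pass without WT library A (edgeR adjusted p = 0.2 and 0.174) or without WT library B (0.198 and 0.175). Axin2, the feedback gene most used as a Wnt readout, had 2941 and 3124 normalized reads in WT and 2377 and 1653 in RingKO and did not pass (-0.41 ± 0.18). Lgr4, a receptor of the same family as Lgr5, did not pass either (-0.27 ± 0.18). None of the 3 genes of the position +4 or reserve cells and none of the 8 measured genes of fetal or regenerating epithelium passed in the authors' deposited table. With edgeR 1 of the 3 reserve genes was called higher, and none of the 8. This was Bmi1, a Polycomb gene and partner of Ring1b, with 132 and 169 normalized reads in WT against 431 and 283 in RingKO (1.43 ± 0.21, edgeR adjusted p = 0.0037). Both RingKO libraries were above both WT libraries, as for 14.4% of entries averaging 50 or more normalized reads. The reserve gene Hopx went the other way, from 33.2 and 30.3 in WT to 15.6 and 12.9 in RingKO (-0.97 ± 0.35, not called). Tert overlapped between genotypes (0.22 ± 0.21).

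Levels of different genes were compared as RPM (reads per 1000000 reads over the entries in both tables) per kilobase of transcript. With the more even split of their WT means, Olfm4 was the highest member in WT, at 2720 and 3230, followed by Clca4 at 823 and 911. Slc12a2 (243 and 280), Vdr (231 and 250) and Cdca7 (225 and 237) came next, and the ranges of neighbours in that order overlapped. Smoc2 stood at 214 and 215, Lrig1 at 116 and 132 and Ascl2 at 96.8 and 79.2, while Lgr5 itself was lower, at 29.6 and 31.1. In RingKO Olfm4 stayed highest in both libraries (2000 and 722), with Clca4 after it (431 and 268). The level of Ascl2 per kilobase was 44.1 and 40.9 in RingKO, and that of Lgr5 33.6 and 17.8.

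The Bcat pair asked for the same members in cells with the Ctnnb1-ex3 allele, with 1 library on each side and therefore no replicate check and no test. Calls use the authors' deposited fold, which includes 1 read added to each count, and the ratios printed are of normalized recovered reads with exact conditional binomial 95% intervals that cover counting error only. In the Bcat_RingKO library 5 of 32 members were at least 2-fold lower than in Bcat and 7 were at least 2-fold higher, and 20 lay between. Over all 17076 entries these shares were 20.8% and 21.8%, and over 12113 entries with at least 10 reads they were 9.12% and 29.9%. The median log2 ratio was 0.25 for the members, 0.00 for all entries and 0.36 for entries with at least 10 reads. TMM scaling placed the ratios 0.22 lower on the log2 scale, which left 5 members lower and 4 higher. Markers of other cell types differed between these 2 libraries as well. Paneth markers summed to 10465 normalized reads in Bcat and 2939 in Bcat_RingKO, with 8 of 9 at least 2-fold lower, whereas 8 of 9 rose in RingKO. Enterocyte markers went from 9946 to 2630 (8 of 9 at least 2-fold lower), enteroendocrine markers from 4577 to 732 (9 of 9 in that table) and goblet markers from 7307 to 6742 (4 of 8 lower and 3 higher). Epithelial markers summed to 11735 and 6857, tuft cell markers to 628 and 440 and markers of cycling cells to 5248 and 5315. Of the 23 Wnt receptor and feedback genes 11 were at least 2-fold higher and 2 lower, and 9 were at least 2-fold higher with TMM scaling. The part of these differences in the values of the signature was not tested.

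The 5 lower members included the 2 most abundant ones. Olfm4 had 2093 reads in Bcat and 2536 in Bcat_RingKO, which was sequenced more deeply, and the ratio after normalization was 0.242 (0.229 to 0.257). Clca4 had a ratio of 0.355 (0.335 to 0.377), Scn2b 0.345 (0.283 to 0.423) and Cdca7 0.482 (0.438 to 0.532). Vnn1 was at 0.306 (0.220 to 0.429). With the more even split for Olfm4 and Clca4, it was the only one of the 5 whose values had not been below WT in both RingKO libraries. The highest ratio was that of Nav1, at 5.49 (4.40 to 6.92), from 183 to 1006 normalized reads. Phlda1 had a ratio of 2.48 (2.03 to 3.06), Rnf32 2.68 (1.81 to 4.13) and Tnfrsf19 2.30 (1.00 to 6.48). Lgr5 had 146 reads in Bcat and 1505 in Bcat_RingKO, a normalized ratio of 2.06 (1.74 to 2.46), and Lrig1 one of 2.14 (1.88 to 2.44). The ratios of Lgr5, Lrig1 and Tnfrsf19 were under 2 with TMM scaling, at 1.78, 1.84 and 1.98. Nr2e3 lay just inside the limit at 2.02 (1.52 to 2.72), where the authors' deposited table gives 1.99 with the added read. Sorbs2, the remaining member called higher, had no reads in Bcat and no more than 4.92 normalized reads in Bcat_RingKO, and no fold is given for it, nor for Dach1 and Esrrg, which had no reads in Bcat either. Ascl2, which fell in RingKO, had 107 and 458 reads in the pair, a ratio of 0.856 whose interval (0.692 to 1.07) holds 1, and 0.737 (0.596 to 0.919) with TMM scaling.

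The direction of each member could be set beside that in RingKO, since the pair shares no library with the first comparison. Of the 11 members that fell in RingKO 8 had a ratio under 1 in the pair, against 63.8% of the 323 entries that fell, and 3 were at least 2-fold lower, against 26.3%. The 3 with a ratio above 1 were Msi1 (1.60), Zbtb38 (1.25) and Rgmb (1.08). With TMM scaling Rgmb was at 0.926, and 9 of the 11 had a ratio under 1. The shares of entries were counted on the authors' scaling only. All 3 that rose had a ratio above 1, as did 94.6% of the entries that rose. The shares of the members were thus near those of other entries that changed in RingKO.

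**Figure D4:**
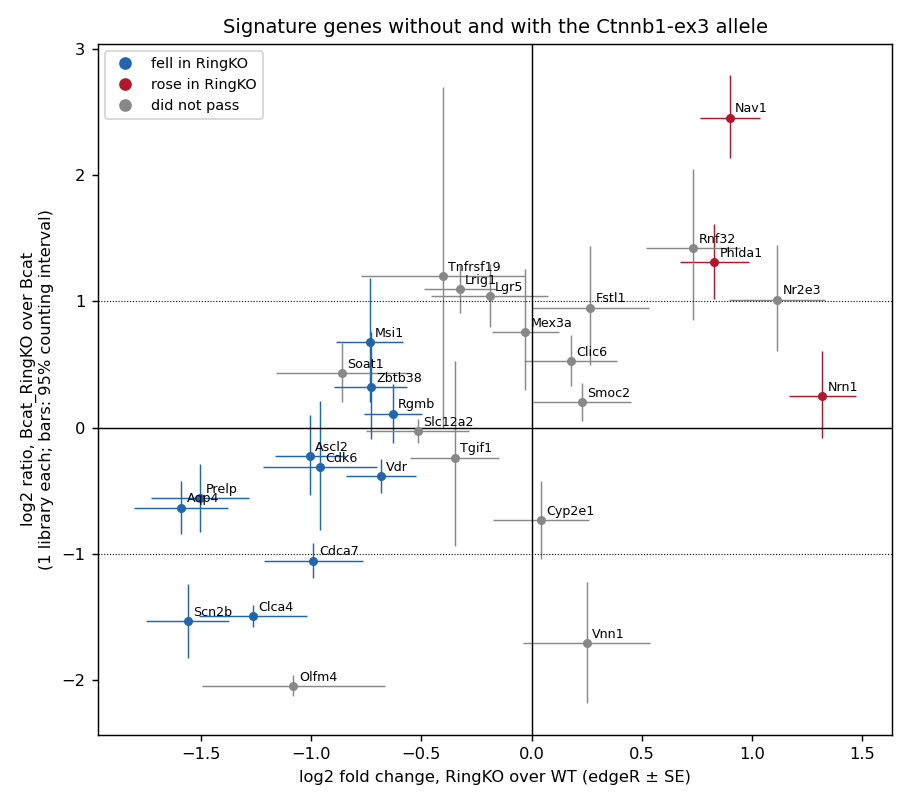
Log2 ratio of Bcat_RingKO over Bcat (y axis, 1 library each, bars 95% counting intervals) against the log2 fold change of RingKO over WT (x axis, edgeR ± SE) for members with reads in both, colored by the call in RingKO. Nav1 and Phlda1 stand high on both axes and Scn2b, Clca4, Cdca7 and Olfm4 low on both, while Lgr5 and Lrig1 lie above 1 on the y axis and below 0 on the x axis.

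The tables had been scaled separately by the authors. Levels over the 4 genotypes are therefore given as RPM, not divided by length, and the difference of Bcat from WT was not tested. Olfm4 was at 4460 and 5300 RPM in WT and at 3270 and 1180 in RingKO. With Ctnnb1-ex3 it was at 2270 in Bcat and at 567 in Bcat_RingKO. With the more even split of its WT mean, Olfm4 was thus highest in WT and lowest with all alleles combined. Clca4 followed the same order of extremes, also with the more even split, with 2770 and 3060 in WT and 704 in Bcat_RingKO. Lgr5 was at 140 and 147 RPM in WT, at 158 and 83.8 in RingKO and at 158 in Bcat. Its highest value was 337, in Bcat_RingKO. Ascl2 was at 155 and 127 in WT and at 70.8 and 65.7 in RingKO, with 116 for Bcat and 102 for Bcat_RingKO. Bcat and Bcat_RingKO thus lay between RingKO and WT for Ascl2. Nav1 had its lowest value in Bcat (89.0) and its highest in Bcat_RingKO (503), with 164 and 163 in WT and 309 and 283 in RingKO. Smoc2 had the smallest ratio of highest to lowest value of these 6 genes, between 460 in Bcat and 842 in RingKO library A. The signature as a whole took 0.967% of reads in Bcat and 0.762% in Bcat_RingKO.

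**Figure D5:**
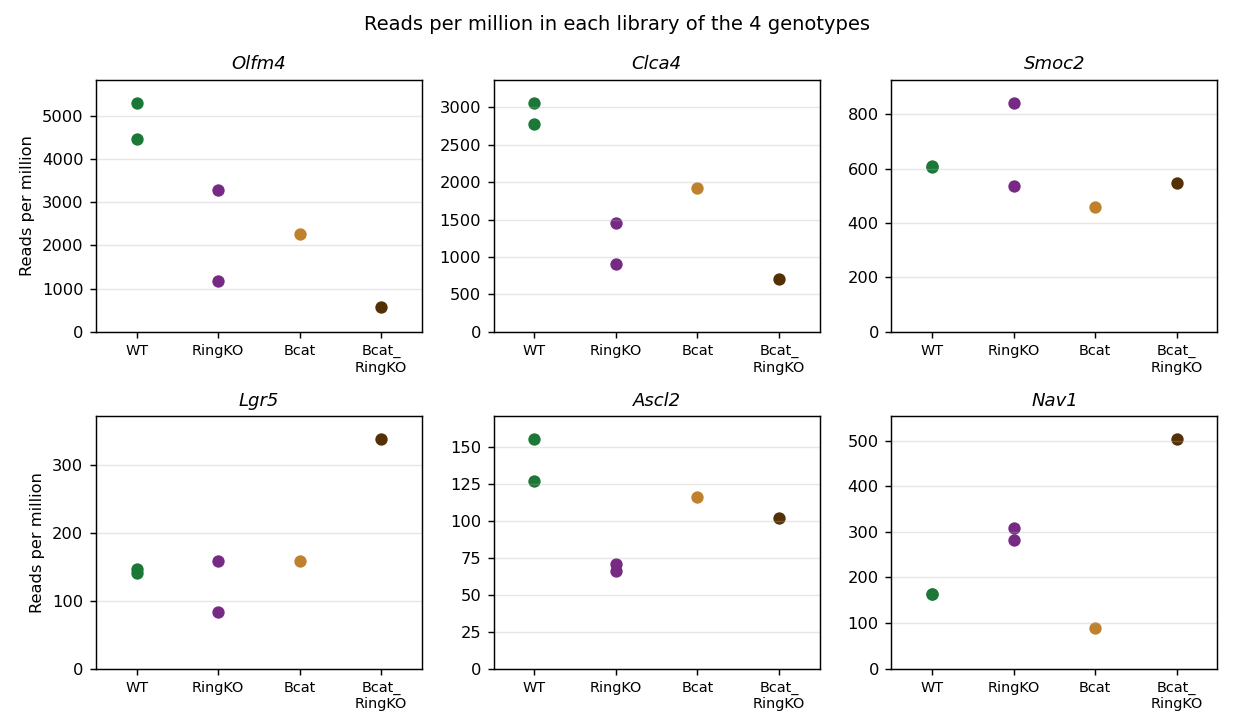
RPM over entries in both tables (y axis, reads per 1000000, from 0) in each library of WT and RingKO (2 points each), Bcat and Bcat_RingKO (1 point each) for 6 signature genes. Olfm4 and Clca4 are highest in WT, where their points use the more even split of the WT mean. Lgr5 and Nav1 are highest in Bcat_RingKO (337 and 503), and the RingKO points of Ascl2 (70.8 and 65.7) are the lowest of its panel.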

How the data were processed

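Messenger RNA libraries were made from sorted Lgr5-GFP cells with an RNeasy Plus Micro extraction and the TruSeq RNA v2 kit, per the labels' protocols. TopHat, DESeq and the build mm9 are listed in the submitters' processing notes. No source used here gives the read counter, the annotation or whether strand was used. The authors deposited 1 table for WT and RingKO and 1 for the Bcat pair, each holding a normalized signal per RefSeq entry, namely group means in the first and 1 value per library in the second. They also deposited a fold (ratio) and its log2 value, with a p-value in both tables and an adjusted p-value over 18376 entries in the first. The p-values of the Bcat pair, with 1 library on each side, were not used.

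The deposited signal behaves as whole reads with 1 added, divided by a factor per library. The reads of the WT and RingKO libraries were recovered as the pair of whole numbers that gives the mean. For 15 WT entries, all with means of at least 10922, more than 1 pair did so and the more even pair was used. Because the first table holds group means, calls rest on the authors' adjusted p (threshold 0.05). Fold changes, SE and the other adjusted p-values come from edgeR 4.0.16 (R 4.3.3) on recovered reads with TMM, filterByExpr, the quasi-likelihood test and Benjamini-Hochberg adjustment, with SE computed as the log2 fold change divided by the square root of F. DESeq2 1.42.0, limma-trend 3.58.1 on log2(normalized value + 1), DESeq2-type size factors, no filter, and fits without each library were alternatives. Scripts were tested on simulated data.

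The members and lists were chosen with earlier results of these data known. Named were all members, Ring1, Rnf2 and Ctnnb1, and up to 3 called genes of each list by smallest adjusted p. Other genes of the lists (Axin2, Lgr4, Nkd1, Ccnd1, Igfbp4, Bmi1, Hopx, Tert, Clca3 and markers of epithelium and leukocytes) were named after values were seen. The edgeR calls of the lists and the grouping of members by role were also added after values were seen. The lists were Wnt receptors and feedback, position +4 or reserve, fetal or regenerating epithelium, Paneth, goblet, enteroendocrine, tuft, enterocyte, cycling cells, epithelium (of which none of 6 passed), leukocyte (none of 6) and stroma and endothelium (none of 6 measured). Promoter windows came from RefSeq (GRCm38.p6) by symbol or accession.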

Additional observations from a re-analysis of the deposited data

Results flagged for a closer look

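Lrig1 moved in opposite directions in the 2 comparisons. Both RingKO libraries (2140 and 1653 normalized reads) lay below both WT libraries (2488 and 2897), under the authors' scaling and under TMM, while Bcat_RingKO stood above Bcat with a ratio of 2.14 (95% counting interval 1.88 to 2.44), or 1.84 with TMM scaling. Of entries averaging 50 or more normalized reads, 52.0% lay below WT in both RingKO libraries on the authors' scaling and 35.4% under TMM. Of entries with at least 10 reads in the pair, 29.9% were at least 2-fold higher in Bcat_RingKO. Lgr4 and Axin2 also lay below WT in both RingKO libraries and had ratios of 1.88 and 1.67 in the pair. The difference between the comparisons was not tested. Lrig1 did not pass in RingKO (adjusted p = 0.223 in the authors' deposited table), and the second comparison has 1 library on each side.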

How the results depend on the processing

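Other tests, size factors and filters gave 10 or 11 members lower and 3 or 4 higher, and the median log2 fold change stayed between -0.65 and -0.45. With the second split of the WT means of Olfm4 and Clca4, an alternative chosen after seeing the data, 9 were lower and 4 higher. Leaving out 1 library gave 4 to 16 members lower, 1 to 8 higher and a median of -0.62 to -0.26. Without a WT library 9 calls were lost in either case, the lone library being assumed to vary like the RingKO pair, and the cause was not tested. TMM scaling left 4 members at least 2-fold higher in Bcat_RingKO, in place of 7. Leaving out 1 library moved the log2 fold change from -0.75 to 0.21 for Lgr5, -0.16 to 0.54 for Smoc2, -0.18 to 0.47 for Clic6, -0.33 to 0.34 for Cyp2e1, -0.28 to 0.66 for Fstl1 and -0.10 to 0.040 for Mex3a, so that the sign turned (Mex3a 0.017 without WT library B). With limma-trend Clic6 was at -0.04 and Cyp2e1 at -0.17. The cause of these changes was not tested. The Bcat library, with 922153 reads, limits the pair, where 3 members had no reads. No paired analysis was possible because the deposited columns carry no replicate numbers and the recovered libraries cannot be matched to those of the labels.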
